A study of Mus musculus with 4 samples.

Results

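Genes of the choroid plexus epithelium were followed in RNA of dissected mouse fetal cortex. The 10 genes were taken by symbol from the deposited tables, out of 23328 genes listed: Ttr, Folr1, Clic6, Kl, Otx2, Sostdc1, Enpp2, Cldn2, Aqp1 and Slc4a5. All 10 were listed in table A and 9 in both tables, Kl being listed in table A only. The cortex came from C57BL/6 embryos at embryonic day 16 (E16). Libraries KO 5 and KO 6 carried a Cd93 knockout (KO) and libraries WT 1 and WT 4 were wild type (WT). No treatment is given for either genotype, and neither the deleted part of Cd93 nor any cell type restriction of the deletion is stated in the labels. The study's title concerns CD93 and the formation of astrocytes, and choroid plexus genes are not part of it. The design text states triplicates, and 2 libraries per genotype were analysed here. Nothing in the labels says that the libraries came from separate embryos, so p-values measure the spread between these libraries, which may be technical.

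The choroid plexus is a folded epithelium in the brain ventricles that makes cerebrospinal fluid and forms a barrier between blood and fluid. In the telencephalon it grows from the dorsal midline next to the cortical hem, so it borders the medial cortex. Its cells secrete carrier proteins, move ions, water and folate, and are joined by tight junctions that contain leaky claudins. It is not part of the cortical wall. Several of the 10 genes are also used by other cells: Enpp2 by mesenchyme and oligodendrocyte precursors, Aqp1 by red cells and some vessels, Otx2 by diencephalon and midbrain.

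The 4 libraries held 17555476 counts in KO 5, 16318317 in KO 6, 17586157 in WT 1 and 17158867 in WT 4. Table A holds KO 6 with WT 1 and table B holds KO 5 with WT 4. Cd93 itself, the check of the labels, was at 111 counts in KO 5 and 99 in KO 6, against 680 in WT 1 and 409 in WT 4. Neurod6, a transcription factor gene of cortical excitatory neurons, was at 1527 and 1667 CPM (the count scaled to the size of its library) in KO 5 and KO 6 and at 1422 and 1542 CPM in WT 1 and WT 4. WT 1 had the highest sums for meningeal and for ganglionic eminence genes. The 16 meningeal and fibroblast genes summed to 215 and 227 CPM in KO 5 and KO 6, against 740 CPM in WT 1 and 234 CPM in WT 4, and none of the 16 was at 0 in any library. The 17 ganglionic eminence genes in both tables summed to 365 and 538 CPM in KO 5 and KO 6, against 983 CPM in WT 1 and 534 CPM in WT 4. Of the 16 tested, 15 were lower in KO and 1 higher, and 0 passed the test between genotypes. For 10 of the 16, each KO library lay below each WT library, as in 11.9% of all tested genes. The median log2 ratio was -1.34 for KO 6 over WT 1, -1.15 for KO 5 over WT 4 and -0.14 for KO 6 over WT 4. These genes were thus also lower in KO 5 than in WT 4, a comparison without WT 1.

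None of the 10 genes passed the test between genotypes. For Ttr, Enpp2 and Clic6 the WT libraries differed from each other by more than KO and WT libraries of the same table did. Of the 9 genes in both tables, 6 had enough counts for the test (Ttr, Clic6, Otx2, Sostdc1, Enpp2 and Aqp1), and 0 of them passed edgeR's quasi-likelihood test at a Benjamini-Hochberg adjusted p of 0.05, where 0.0122% of all 16371 tested genes passed. At an unadjusted p under 0.05, edgeR gave 0 of the 6 and 317 of the 16371 tested genes, and limma-voom called 0 of the 6, against 0.0122% of all genes. DESeq2 and edgeR without a filter on low counts tested all 9 and called 0, against 0.0442% and 0.00981% of all genes. On the log2 scale the 6 had a median KO over WT change of -0.19, 3 being higher and 3 lower, and all tested genes had 0.00. Over all 9 the median was -0.61 in DESeq2 and -0.62 in edgeR without the filter. The median of the 6 was 0.45 with WT 1 left out, -0.83 without WT 4, -0.1 without KO 5 and -1.08 without KO 6. In bulk tissue, fewer cells of a type and less RNA per cell cannot be told apart.

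**Figure D1:**
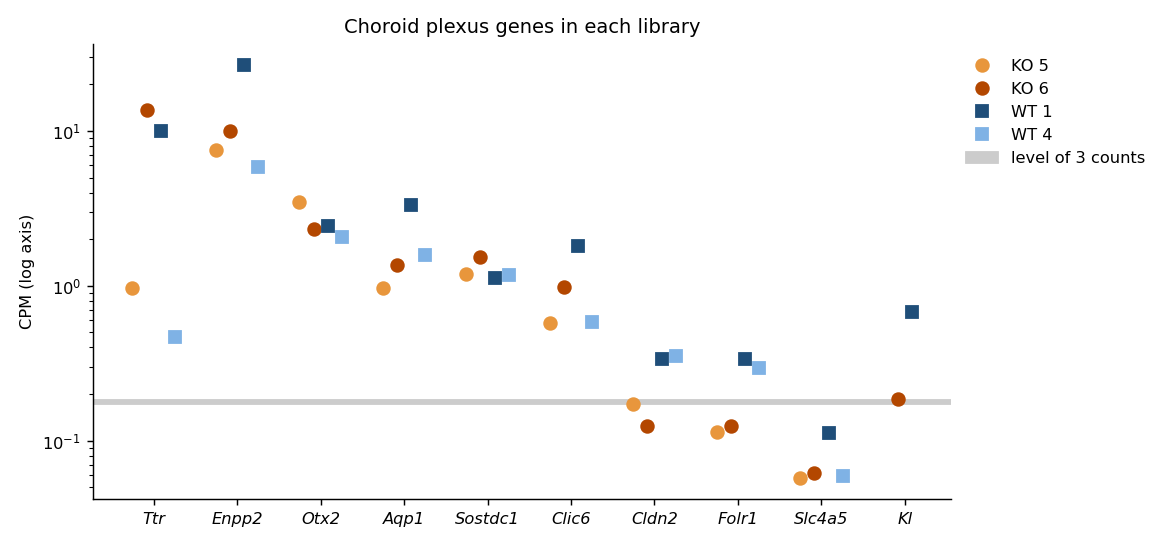
Level of each of the 10 genes in the 4 libraries, as CPM on a log axis. Circles are KO libraries, squares are WT libraries, and the grey band is the level of 3 counts. Ttr separates KO 6 and WT 1 from KO 5 and WT 4, while Enpp2, Aqp1, Clic6 and Kl are highest in WT 1.

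Ttr encodes transthyretin, which carries thyroxine and, through retinol-binding protein, vitamin A, and it is the hallmark transcript of choroid plexus epithelium. It lies on chromosome 18, from 20665250 to 20674324 on the plus strand. Ttr had 17 counts in KO 5 and 222 in KO 6, against 178 in WT 1 and 8 in WT 4. The level was thus high in 1 KO and 1 WT library and low in the other KO and WT library, and the genotypes overlapped. In CPM this was 0.971 and 13.7 in KO 5 and KO 6, against 10.02 and 0.470 in WT 1 and WT 4. The means were 7.33 ± 8.99 CPM in KO and 5.24 ± 6.75 CPM in WT (SD, n = 2 each), so each SD exceeded its mean. KO over WT gave 0.47 (SE 1.34) on the log2 scale, which missed the threshold (adjusted p 0.9999, edgeR). The span of Ttr overlaps the antisense gene Gm16090, with 0 exonic bases shared; whether counting used strand is not given in the sources used here.

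The libraries high in Ttr were the 2 of table A. KO 6 had 14.1 times the level of KO 5 (95% exact interval 8.61 to 24.6), and WT 1 had 21.3 times that of WT 4 (10.6 to 50.1). Such intervals hold counting error alone, as reads lacking molecular identifiers may be copies of 1 molecule, and they compare libraries, not conditions. Within a table the ratios were smaller, with KO the higher in each. KO 6 had 1.37 times the level of WT 1 (1.12 to 1.67), and KO 5 had 2.07 times that of WT 4 (0.845 to 5.53). The direction of the fitted fold change depended on single libraries. It was 3.93 without WT 1 and 1.38 without KO 5, but -0.46 without WT 4 and -2.42 without KO 6, with adjusted p values of 0.141 to 1.0 over the 11 alternatives run (edgeR, DESeq2 and limma-voom). With the deposited table as a block the log2 fold change was 0.60, with an edgeR adjusted p of 0.9998.

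Few genes differed between the tables as Ttr did, a comparison chosen after the values were seen. A log2 ratio of at least 3, higher in table A in both genotypes, was reached by 7 of 16371 tested genes (0.0428%), and 3 genes (0.0183%) were as much lower. Besides Ttr, the 7 were Slc6a13, a GABA and taurine transporter gene of meninges and vessels, and 5 genes annotated as unprocessed pseudogenes on chromosome 1. Slc6a13 had 4 counts in KO 5 and 52 in KO 6, against 448 in WT 1 and 3 in WT 4, so it was highest in WT 1 by far. The 5 pseudogenes were Gm10222, Gm28437, Gm28439, Gm28661 and Gm29216. Gm28661 was at 41.9 and 553 CPM in KO 5 and KO 6, against 491 and 44.8 CPM in WT 1 and WT 4, and Gm29216 at 12.1 and 303 CPM, against 271 and 13.2 CPM. Counts of such copies can be shared with near-identical sequences, so they are uncertain.

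**Figure D2:**
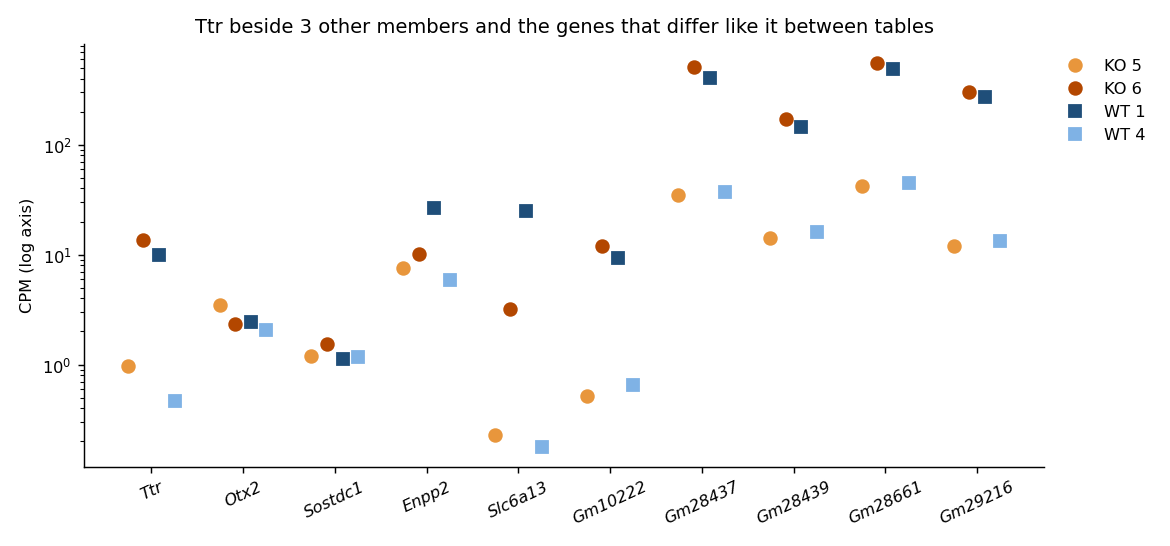
Levels in CPM (log axis) of Ttr, of Otx2, Sostdc1 and Enpp2, and of the other 6 genes with a log2 ratio of at least 3 between tables A and B in both genotypes. Circles are KO and squares are WT libraries. In Ttr and the 5 pseudogenes KO 6 and WT 1 lie together and above KO 5 and WT 4, which Otx2 and Sostdc1 do not show.

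The 8 genes whose profile over the 4 libraries lay nearest to that of Ttr, among 15004 genes with a mean of at least 1 CPM, were 6 unprocessed pseudogenes on chromosome 1, a processed pseudogene and a mitochondrial gene. Nearness is the Euclidean distance between log2 CPM values centred on each gene's mean, over 4 libraries. The nearest was Gm28437 at a distance of 0.74, with 34.8 and 506 CPM in KO 5 and KO 6, against 404 and 37.2 CPM in WT 1 and WT 4. Next came Gm28661, Gm10222, Gm28439 and Gm29216 at 0.78 to 0.96, then Mrpl23-ps1, Gm10925 and mt-Nd3 at 1.36 to 1.40. mt-Nd3, a complex I subunit gene of the mitochondrial genome, was at 2.57 and 15.7 CPM in KO 5 and KO 6, against 14.4 and 2.23 CPM in WT 1 and WT 4. The 10 choroid plexus genes were left out of this search, so they could not be among the 8. None of the 8 is on the list of 36 further choroid plexus genes. Whether a difference in handling between the tables takes part in the Ttr levels was not tested.

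Ptgds, the gene of prostaglandin D synthase in meninges and choroid plexus, was chosen after its values were seen. It had 39 counts in KO 5 and 259 in KO 6, against 297 in WT 1 and 43 in WT 4. KO 6 was 7.17 times KO 5 (95% exact interval 5.11 to 10.3) and WT 1 was 6.62 times WT 4 (4.79 to 9.33), while KO 6 was 0.955 times WT 1 (0.806 to 1.13).

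Enpp2 encodes autotaxin, the secreted enzyme that makes lysophosphatidic acid. The gene lies on chromosome 15, from 54838898 to 54920146 on the minus strand. It had 132 counts in KO 5 and 163 in KO 6, against 477 in WT 1 and 100 in WT 4. WT 1 was highest, at 26.84 CPM, and WT 4 lowest, at 5.875 CPM, with both KO libraries between them, so the genotypes overlapped. The level was 8.79 ± 1.78 CPM in KO and 16.4 ± 14.8 CPM in WT (SD, n = 2 each), which is -0.90 (SE 0.62) as log2 KO over WT, with an adjusted p of 0.9999 in edgeR. Without WT 4 the fit called it lower in KO, at -1.61 with an edgeR adjusted p of 6.19e-05, where 1.82% of 17129 tested genes were called. Without WT 1 the change was 0.58, with an edgeR adjusted p of 0.9999. Between the WT libraries the ratio was 4.57 (95% exact interval 3.68 to 5.73), and it was 0.374 (0.311 to 0.448) for KO 6 over WT 1 and 1.28 (0.982 to 1.68) for KO 5 over WT 4. Meningeal genes were also highest in WT 1, 11 of the 13 tested, against 4564 of all 16371 tested genes, and their part in the Enpp2 level was not tested.

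Aqp1, the gene of the water channel in the apical membrane of choroid plexus cells, had the smallest p of the 6. It lies on chromosome 6, from 55336432 to 55348555 on the plus strand. It had 17 counts in KO 5 and 22 in KO 6, against 59 in WT 1 and 27 in WT 4. Both KO libraries lay below both WT libraries, as in 11.9% of all tested genes. The level was 1.16 ± 0.273 CPM in KO and 2.45 ± 1.23 CPM in WT (SD, n = 2 each), and the log2 fold change of -1.08 (SE 0.47) had an unadjusted p of 0.0579 and an edgeR adjusted p of 0.9999. It was -0.45 without WT 1 and -1.51 without WT 4, with edgeR adjusted p values of 0.9999 and 0.137. Within the tables, log2 KO over WT was -1.22 for KO 6 over WT 1 and -0.65 for KO 5 over WT 4. Red cell genes, which Aqp1 accompanies in blood, summed to 769 and 1470 CPM in KO 5 and KO 6, against 1070 and 1010 CPM in WT 1 and WT 4. Of the 9 tested red cell genes 2 were highest in WT 1, and Hba-a2, an alpha globin gene, had 156 counts in KO 5 and 161 in KO 6, against 338 in WT 1 and 170 in WT 4. Counts of Hba-a2 are uncertain, as it has a near-identical copy in Hba-a1. The part of red cell genes in the Aqp1 level was not tested.

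Clic6 encodes a chloride intracellular channel protein that is abundant in choroid plexus, on chromosome 16, from 92485736 to 92541243, plus strand. It had 10 counts in KO 5 and 16 in KO 6, against 32 in WT 1 and 10 in WT 4. WT 1 alone was high. The level was 0.779 ± 0.294 CPM in KO and 1.19 ± 0.858 CPM in WT (SD, n = 2 each), which is -0.62 (SE 0.63) as log2 KO over WT, with an adjusted p of 0.9999 in edgeR; this was 0.40 without WT 1. WT 1 had 3.06 times the level of WT 4 (95% exact interval 1.47 to 6.99), and KO 5 had 0.972 times that of WT 4 (0.363 to 2.60).

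**Figure D3:**
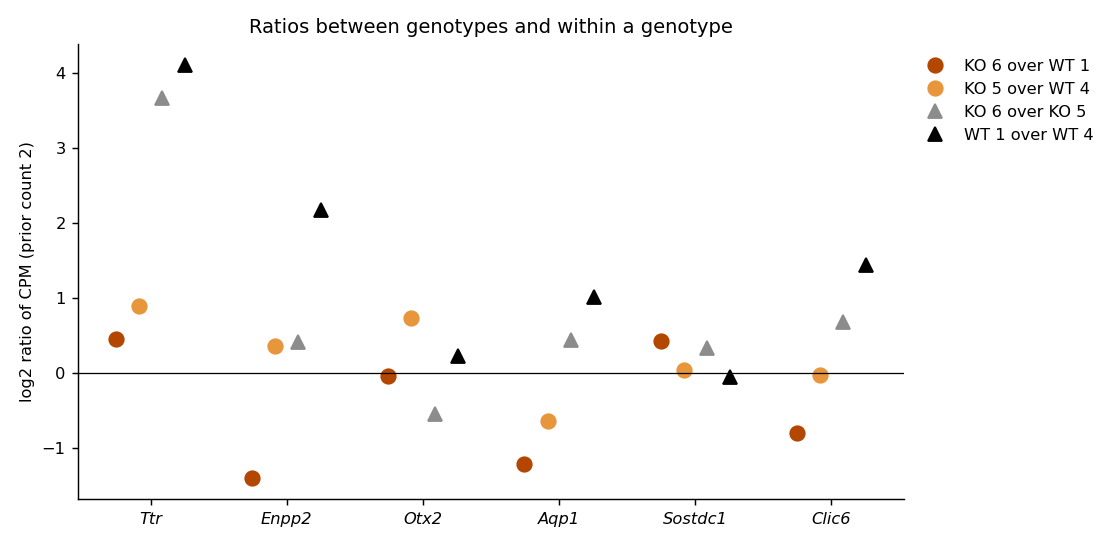
Log2 ratios of CPM (prior count 2) for the 6 tested genes. Circles set a KO over a WT library of the same deposited table, and triangles set libraries of the same genotype against each other. For Ttr, Enpp2 and Clic6 the WT 1 over WT 4 ratio (4.11, 2.17 and 1.44) is farther from 0 than either ratio of KO to WT.

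Otx2, the homeobox transcription factor without which choroid plexus does not form, had its highest level in KO 5. The gene lies on chromosome 14, from 48657679 to 48667644 on the minus strand. It had 61 counts in KO 5 and 38 in KO 6, against 43 in WT 1 and 35 in WT 4. The KO range took in the WT 1 value, and the level was 2.91 ± 0.806 CPM in KO and 2.24 ± 0.257 CPM in WT (SD, n = 2 each). As log2 KO over WT this was 0.38 (SE 0.34), with an adjusted p of 0.9999 in edgeR, and 0.07 without KO 5. WT 1 had 1.18 times the Otx2 level of WT 4 (95% exact interval 0.736 to 1.89) and KO 6 had 0.673 times that of KO 5 (0.436 to 1.02), so Otx2 did not share the difference between the tables seen in Ttr. KO 5 had 1.69 times the Otx2 level of WT 4 (1.10 to 2.64), and KO 6 had 0.968 times that of WT 1 (0.609 to 1.53).

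OTX2 belongs to the bicoid-type homeodomain proteins, whose core motif TAATCC was searched on both strands in the 250 bases before each RefSeq start site. Windows were matched by symbol for 5 of the 10 genes, Kl, Aqp1, Slc4a5, Otx2 and Cldn2, with 8 windows in all. The motif was in 1 of the 8, before a downstream start site of Otx2 itself, and in 6.3% of all 32851 windows. The match began 211 bases before that start site and lay in an exon annotated for another Otx2 transcript. The 30 bases around it are shown 5′ to 3′ on the minus strand of GRCm38.p6, chr14:48665303-48665332, from RefSeq, because the gene for the factor is one of the 10. Capitals mark the motif, here as its reverse complement.
Otx2: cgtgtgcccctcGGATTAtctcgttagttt
A match is a description of letters and no evidence of binding, and the other windows say only that these letters are not in them.

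Sostdc1 encodes a secreted antagonist of BMP and Wnt signals, on chromosome 12, from 36314139 to 36318452, plus strand. It had 21 counts in KO 5 and 25 in KO 6, against 20 in WT 1 and 20 in WT 4. Both KO libraries were above both WT libraries in CPM, as in 11.5% of all tested genes, but by little: 1.37 ± 0.242 CPM in KO and 1.15 ± 0.0351 CPM in WT (SD, n = 2 each). As log2 KO over WT this was 0.25 (SE 0.38), with an adjusted p of 0.9999 in edgeR, and the ratio of summed counts was 1.19 (95% exact interval 0.759 to 1.86).

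The other 4 genes, which act in folate uptake, tight junctions, hormone signalling and bicarbonate transport, had at most 12 counts in any library. Folr1, the folate receptor that carries folate into cerebrospinal fluid, had 2 counts in KO 5 and 2 in KO 6, against 6 in WT 1 and 5 in WT 4. Cldn2, the claudin of leaky epithelia, had 3 counts in KO 5 and 2 in KO 6, against 6 in WT 1 and 6 in WT 4. In both, each KO library was below each WT library, as in 11.9% of all tested genes, which do not include Folr1 and Cldn2. The ratios of summed counts at equal depth, KO over WT, were 0.375 (95% exact interval 0.0871 to 1.27) for Folr1 and 0.430 (0.119 to 1.31) for Cldn2, so no difference was detectable at this depth.

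Kl, the gene of klotho, a co-receptor for the hormone FGF23, had 3 counts in KO 6 and 12 in WT 1. The ratio was 0.274 (95% exact interval 0.0496 to 1.01). Table B, whose listed genes have at least 2 counts over its libraries, does not list Kl, so this ratio had no replicate check. Slc4a5, the gene of a sodium bicarbonate cotransporter of the apical membrane, had 1 count in KO 5 and 1 in KO 6, against 2 in WT 1 and 1 in WT 4. All 4 values are at or under the level of 3 counts, 0.171 to 0.184 CPM, so no fold is given. The span of Folr1 overlaps that of Anapc15 on the other strand, but the exons of the genes share 0 bases.

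Scaled by exonic length, Ttr had the highest mean of the 10 over the libraries, at 5.30 CPM per kilobase, followed by Enpp2 at 2.18 CPM per kilobase. Sostdc1, Aqp1 and Otx2 followed at 0.707, 0.688 and 0.610 CPM per kilobase, values whose libraries overlap. Clic6 was at 0.252, Folr1 at 0.0946 and Cldn2 at 0.0740 CPM per kilobase. Kl, in table A only, was at 0.0461 and Slc4a5 at 0.0125 CPM per kilobase. The order depended on the library. Ttr exceeded Enpp2 in KO 6, at 11.5 and 1.74 CPM per kilobase, but not in KO 5, at 0.818 and 1.30, and it did so in WT 1, at 8.44 and 4.64, but not in WT 4, at 0.396 and 1.02.

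Summed over the 9 genes in both tables, the level was 15.1 CPM in KO 5 and 30.3 CPM in KO 6, against 46.3 CPM in WT 1 and 12.5 CPM in WT 4. Ttr made up 6.44% and 45.2% of these counts in KO 5 and KO 6, against 21.6% in WT 1 and 3.77% in WT 4. Without Ttr the sums were 14.1 and 16.6 CPM in KO 5 and KO 6, against 36.3 and 12 CPM in WT 1 and WT 4. With Enpp2 also left out they were 6.57 and 6.53 CPM in KO 5 and KO 6, against 9.45 and 6.11 CPM in WT 1 and WT 4. The 7 remaining genes thus varied less than the sum of all 9, and WT 1 stayed the highest.

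The 6 tested genes are grouped here by the distance between their profiles over the libraries, as a description. Clic6, Enpp2 and Aqp1 lay close to each other, at distances of 0.56 to 0.91, with WT 1 highest in each. Otx2 and Sostdc1 lay at 0.67 from each other, with a KO library highest in each, KO 5 for Otx2 and KO 6 for Sostdc1. Their log2 ratios of KO 6 over KO 5 were thus opposite, -0.55 for Otx2 and 0.33 for Sostdc1, and Sostdc1 had 20 to 25 counts in every library. Ttr lay 2.93 to 4.07 from each of the other 5. The other 4 genes had too few counts for a profile. Among genes outside the choroid plexus members, the 2 protein-coding genes nearest to the mean profile of the 6 were Tbx3 and Clec2d, at distances of 0.08 and 0.09. Tbx3 is a T-box transcription factor gene and Clec2d a C-type lectin gene. Tbx3 had 16 counts in KO 5 and 30 in KO 6, against 44 in WT 1 and 14 in WT 4.

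Further genes of choroid plexus epithelium were counted from a list of 36, of which 21 were tested. None passed, 6 were higher and 15 lower, and the median was -0.13 as log2 KO over WT. Of the 21, 10 were highest in WT 1, as were 4564 of all 16371 tested genes. Cldn1, a barrier claudin gene, had 41 counts in KO 5 and 40 in KO 6, against 72 in WT 1 and 67 in WT 4. Its libraries were even within each genotype, and its log2 fold change of -0.73 (SE 0.28) had an unadjusted p of 0.0393 and an edgeR adjusted p of 0.9999. Cldn1 is also a gene of meningeal barrier cells. Cp, the gene of the copper-carrying ferroxidase ceruloplasmin, had 27 counts in KO 5 and 27 in KO 6, against 146 in WT 1 and 19 in WT 4. Slc13a4, a sulfate transporter gene of choroid plexus and meninges, had 7 counts in KO 5 and 17 in KO 6, against 66 in WT 1 and 4 in WT 4. Cp was high in WT 1 alone. Slc13a4 was highest in WT 1, and its KO 6 level was also above KO 5 and WT 4, at log2 ratios of 1.17 and 1.73. The log2 fold changes of Cp and Slc13a4 were -1.54 (SE 0.82) and -1.46 (SE 1.08). Without WT 4 they were -2.35 and -2.36, and without WT 1 they were 0.52 and 1.58. Atp1b1, a sodium pump subunit gene that neurons also use, was at 52.7 ± 8.31 CPM in KO and 45.7 ± 2.73 CPM in WT (SD, n = 2 each).

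Genes of the roof plate and cortical hem, the midline tissue from which choroid plexus grows, did not pass either. Of 18 listed genes 13 were tested and 0 passed. Their median was 0.37 as log2 KO over WT, 10 being higher and 3 lower. Lmx1a, a transcription factor gene of the roof plate and hem, had 47 counts in KO 5 and 40 in KO 6, against 5 in WT 1 and 28 in WT 4. Rspo2, the gene of a secreted Wnt enhancer, had 275 and 196 counts in KO 5 and KO 6, against 80 in WT 1 and 172 in WT 4. Both were lowest in WT 1, where Enpp2, Aqp1 and Clic6 were highest. Their log2 fold changes were 1.42 (SE 0.67) and 0.93 (SE 0.38), with edgeR adjusted p values of 0.9999. In edgeR the log2 fold changes of Lmx1a and Rspo2 were 3.17 and 1.63 without WT 4, but 0.65 and 0.46 without WT 1. Bmp6, a BMP ligand gene that meninges also express, had 53 and 28 counts in KO 5 and KO 6, against 221 in WT 1 and 34 in WT 4. Its log2 fold change of -1.60 (SE 0.79) was -2.37 without WT 4 and 0.26 without WT 1. Dkk3, a gene of the Dickkopf family, was at 43.8 ± 3.34 CPM in KO and 33.9 ± 4.61 CPM in WT (SD, n = 2 each).

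**Figure D4:**
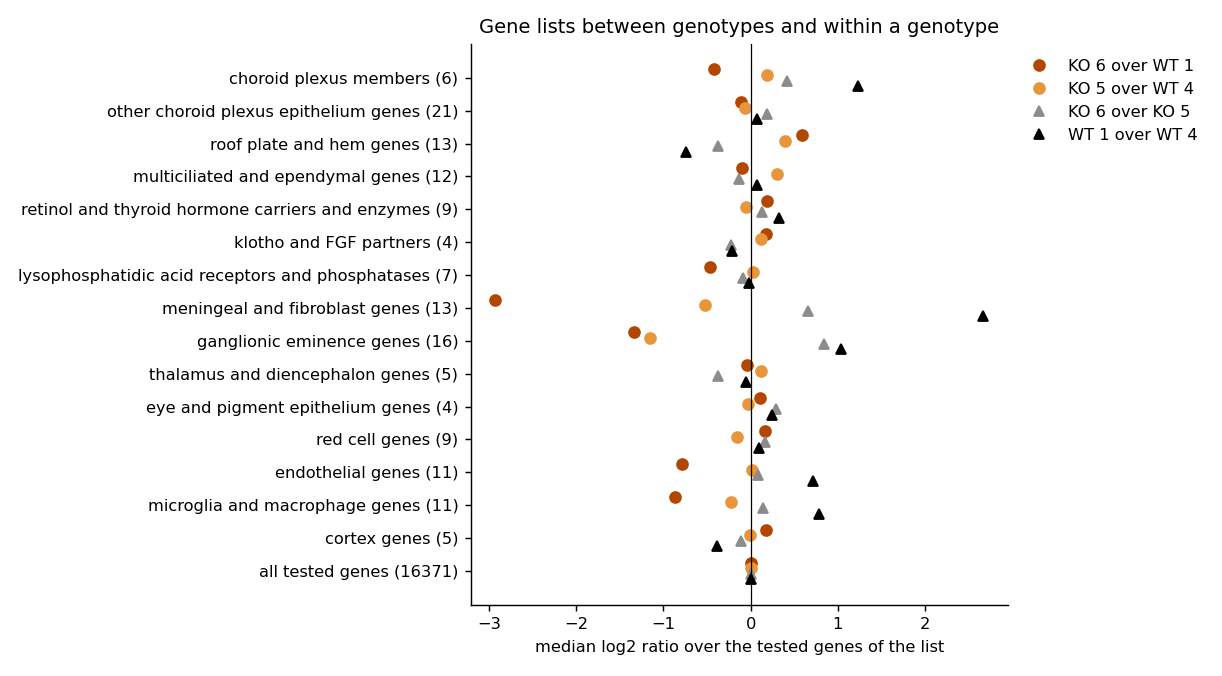
Median log2 ratio over the tested genes of each list, with the number tested in brackets. Circles set KO over WT within a deposited table, and triangles set libraries of 1 genotype against each other. The 6 choroid plexus genes have medians of -0.42 and 0.19 between genotypes and of 0.42 and 1.23 within them, and the meningeal list has the largest WT 1 over WT 4 median, 2.67.

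Partners of the 10 genes in their pathways were counted in the same way, and none of them passed. Among 9 genes of retinol and thyroid hormone handling, which bear on the cargo of transthyretin, 5 were higher and 4 lower, with a median of 0.13. Dio2, the deiodinase that activates thyroid hormone, was at 13.0 ± 1.04 CPM in KO and 8.67 ± 1.04 CPM in WT (SD, n = 2 each). On the log2 scale this was 0.59 (SE 0.20), with an unadjusted p of 0.0231 and an adjusted p of 0.9999 in edgeR. Crabp2, a retinoic acid carrier gene also on the meningeal list, was at -1.07 (SE 0.40) as log2 KO over WT. The thyroid hormone receptor gene Thrb was at -0.73 (SE 0.34) on the same scale.

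Both tested partners of Folr1 in folate transport differed little between genotypes. Slc19a1, the reduced folate carrier gene, was at 24.6 ± 1.89 CPM in KO and 26.9 ± 3.08 CPM in WT, and Slc46a1, the proton-coupled folate transporter gene, at 28.5 ± 2.17 CPM in KO and 30.6 ± 0.243 CPM in WT (SD, n = 2 each). Of the klotho and FGF partners 4 were tested, 3 higher and 1 lower, with a median of 0.17. Fgfr1, an FGF receptor gene, was at 0.33 (SE 0.18) as log2 KO over WT, and Klb, the gene of beta-klotho, had 14 and 12 counts in KO 5 and KO 6, against 6 in WT 1 and 12 in WT 4. Of the receptors and phosphatases of lysophosphatidic acid, the product of autotaxin, 7 were tested, 3 higher and 4 lower, with a median of -0.14. Plpp1, a lipid phosphatase gene, had -0.36 (SE 0.21), and Lpar4, a receptor gene, -0.59 (SE 0.37).

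Genes of motile cilia were tested because choroid plexus and ependyma are ciliated, and 12 gave 6 higher and 6 lower with a median of -0.01 and 0 passing. Hydin, the gene of a ciliary central pair protein, had 39 and 31 counts in KO 5 and KO 6, against 16 in WT 1 and 20 in WT 4. Both KO libraries were above both WT libraries, as in 11.5% of all tested genes. For Hydin, log2 KO over WT was 0.99 (SE 0.37), with an unadjusted p of 0.0327 and an adjusted p of 0.9999 in edgeR. Dnah5, an axonemal dynein gene, had 8 and 11 counts in KO 5 and KO 6, against 17 and 17 in WT 1 and WT 4, a log2 fold change of -0.78 (SE 0.46).

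Markers of other tissues next to the cortex differed among the libraries as well. Of 13 tested meningeal and fibroblast genes 2 were higher and 11 lower in KO, with a median of -2.57, and 0 passed with all 4 libraries. Col3a1, a fibrillar collagen gene, had 119 and 175 counts in KO 5 and KO 6, against 2795 in WT 1 and 283 in WT 4. Col1a1, its relative, had 157 and 140 counts in KO 5 and KO 6, against 1454 in WT 1 and 384 in WT 4. With the table as a block edgeR called both, at -2.73 and -2.31 with adjusted p values of 0.0373 and 0.0220, where 0.177% of genes were called. Dlx5, a ventral forebrain homeobox gene, was called in the same fit at -1.19 with an edgeR adjusted p of 0.0203. Without WT 4 the edgeR log2 fold changes of Col3a1, Col1a1, Dlx5 and Slc6a13 were -4.16, -3.21, -1.57 and -3.89. Without WT 1 they were -0.92, -1.36, -0.75 and 3.21, so Slc6a13 turned direction while Col3a1, Col1a1 and Dlx5 stayed lower in KO.

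Other lists gave smaller shifts. Endothelial genes had a median of -0.42, with all 11 tested genes lower and all 11 highest in WT 1, and microglia and macrophage genes had -0.56, with all 11 lower and 10 highest in WT 1, where 4564 of all 16371 tested genes were highest. Red cell genes had a median of 0.09, genes of the thalamus and diencephalon 0.19, and genes of the eye and pigment epithelium, another tissue that uses Ttr and Otx2, 0.10. None of these passed in edgeR with all 4 libraries.

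The authors' deposited tables, each a comparison of 1 library with 1 library, marked Enpp2 and Aqp1 as significant in table A. In the authors' deposited table A their KO to WT ratios of CPM were 0.368 for Enpp2 and 0.402 for Aqp1, and 4.67% of its genes were marked. In the authors' deposited table B none of the 9 genes was marked, with ratios of 1.29 for Enpp2, 0.615 for Aqp1 and 2.08 for Ttr, and 2.31% of its genes were marked. Ttr was not marked in the authors' deposited table A, where its ratio was 1.34 and its adjusted p 0.0147.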

How the data were processed

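Counts are whole reads per Ensembl gene, made by the authors and deposited in 2 tables of 1 KO and 1 WT library. HTSeq 0.6.0, TopHat2 2.0.12, Bowtie2 2.2.3 and mm9 are listed with no role or strand setting, per the submitters' processing notes. Gene positions are printed as deposited and are those of GRCm38: 92.1% of the genes also in GENCODE M21 share its start and end. The deposited CPM values are counts scaled to the size of each library by the authors. The deposited fold change (a ratio of KO to WT CPM), its log2 value and the deposited p-value with its adjusted form compare 1 library with 1 library, per the file headers, by a tool not given in the sources used here. A table lists genes with at least 2 counts over its libraries.

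The 20385 genes in both tables were fitted with edgeR 4.0.16 under R 4.3.3 (TMM, filterByExpr, quasi-likelihood test, two-sided, 2 libraries per genotype), DESeq2 1.42.0 and limma 3.58.1, and in Python 3.11.15 with scipy 1.17.1. CPM in the text are TMM-scaled, with factors of 0.994 to 1.012. Log2 ratios between libraries use a prior count of 2. Exact intervals are conditional binomial (Clopper-Pearson) at 95%. Exonic lengths are from GENCODE M21 and include every annotated exon. Scripts were tested on simulated data. The members and lists were chosen with earlier results of these data known. Named are the members, Cd93, up to 4 genes of smallest p per list, and the genes nearest to the profile of Ttr or of the members. Alternatives were other tools, scalings and filters, the table as a block, and leaving out each library. Results for some items withheld for evaluation are not reported here.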

Additional observations from a re-analysis of the deposited data

How the results depend on the processing

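The edgeR count of genes passing between genotypes was 2, and it was 9 in DESeq2, 29 with the deposited table as a block and 5 to 312 with 1 library left out. The choroid plexus count was 0 and became 1 (Enpp2, without WT 4) with 1 library left out, a range of 0 to 1, and it was 0 under the other alternatives run. Their median log2 fold change of -0.19 ranged from -1.08 to 0.45 with 1 library left out, on 6 genes each, and was -0.61 in DESeq2 and -0.62 without a filter, on 9 genes each. Directions turned in some of the fits with 1 library left out. Those log2 fold changes ran from -2.42 to 3.93 for Ttr, -1.20 to 0.40 for Clic6, -1.61 to 0.58 for Enpp2, -2.35 to 0.52 for Cp, -2.36 to 1.58 for Slc13a4, -2.37 to 0.26 for Bmp6 and -5.75 to 3.21 for Slc6a13. The cause was not tested. Cd93 itself passed in DESeq2 (adjusted p 1.59e-12), in edgeR with the table as a block (0.000971), without WT 1 (1.63e-05) and without WT 4 (4.13e-09), but not in edgeR with all 4 libraries (0.2105). The count of 7 genes that differ between tables like Ttr was 8 with a prior count of 0.5 and 6 with a prior count of 5, settings chosen after seeing the data, and Ttr was among them each time. The genotypes share no replicate number, so libraries were paired only by deposited table (KO 6 with WT 1, KO 5 with WT 4), in the block fit above. Depth limits Folr1, Cldn2, Kl and Slc4a5, whose counts allow no statement on a fold change of usual size.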
